A study of Saccharomyces cerevisiae with 24 samples.

Results

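The step from 30 min to 60 min at 37C was followed in 4 strains of budding yeast, Saccharomyces cerevisiae, on 8 of the 24 arrays of a temperature-shift series. The 8 arrays were taken by their labels, as the 4 arrays at 60 min and the 4 arrays at 30 min, and were paired by strain. Mutants of pre-mRNA splicing factors make up 3 of the strains, named in the labels prp17 null, prp17-1 and prp22-1, and the remaining strain, SS330, was taken as the comparison strain. All cultures had been at 23C before the shift, and each strain was also sampled at 0, 5, 15 and 120 min. There was 1 array per strain and time, with total RNA of the strain in the Cy5 channel and yeast genomic DNA in the Cy3 channel. The labels give no further genotype, mating type or selection marker, and name no separate cultures, so effects of strain and of culture cannot be told apart.

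A shift to 37C is a mild heat shock for yeast. Heat shock factor and the paralogous activators Msn2 and Msn4 switch on chaperone genes and a broad set of general stress genes within minutes, while transcription of genes for ribosomal proteins and ribosome assembly drops, and both arms of the response are known to relax again while the cells stay warm. Prp17, whose gene is listed today as CDC40, acts in the spliceosome around the second catalytic step, and Prp22 is the RNA helicase that releases the finished mRNA. The comparison of 60 min with 30 min shows how far each gene had moved back, or on, in each strain.

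Every value below is a log2 ratio after the median of its array was set to 0, and a change is the value at 60 min minus the value at 30 min in the same strain. A change of 1 is a 2-fold change. Values of the 4 strains are listed in the order prp17 null, prp17-1, prp22-1 and SS330. Of 6350 probes, the 60 min arrays held a value for 91.6% to 97.7% and the 30 min arrays for 79.7% (prp17 null) to 98.4%, and the 4322 probes with a value on all 8 arrays were tested. The spread of values over the tested probes was narrower at 60 min in each strain, with an SD of 0.928, 0.599, 0.601 and 0.422, against 1.01, 0.747, 0.649 and 0.526 at 30 min. CDC40 was low in prp17 null at both times, at -1.5 at 60 min and -1.88 at 30 min, while the other strains lay between 0.07 and 0.20 at 60 min and between 0.04 and 0.41 at 30 min. Neither CDC40 (mean change -0.02 ± 0.15, SE, adjusted p = 0.985) nor PRP22 (-0.17 ± 0.16, adjusted p = 0.799) passed the test. The labels prp17-1 and prp22-1 are not checked by these values, since an mRNA can keep its level when it carries a point mutation.

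Over all strains 4 genes passed the test, and all 4 fell between 30 and 60 min. RSF1, which encodes a regulator needed for respiratory growth, was at 3.15, 1.66, 0.38 and 0.63 at 60 min, against 4.55, 3.72, 2.46 and 2.78 at 30 min. It was lower at 60 min in each strain, although the range over strains at 60 min overlapped that at 30 min because prp17 null was high at both times. Its mean level was 1.45 ± 1.26 at 60 min and 3.38 ± 0.94 at 30 min (SD, n = 4 strains each), a change of -1.93 ± 0.16 (SE, adjusted p = 0.00452). The change lay between -2.15 and -2.06 in 3 strains and was -1.40 in prp17 null.

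SPI1, the gene of a cell wall protein anchored by a lipid and made in stationary phase and under stress, was at 4.23, 2.53, 1.88 and 0.53 at 60 min, against 6.16, 4.76, 3.38 and 1.73 at 30 min. The order of the strains was the same at both times, with SS330 lowest and prp17 null highest. The change was -1.72 ± 0.18 (SE, adjusted p = 0.0117). FMP16, which encodes a protein found in mitochondria, was at 1.74, 0.43, 0.45 and 0.34 at 60 min, against 3.43, 2.66, 2.18 and 1.46 at 30 min. At 60 min 3 of the strains lay within 0.34 to 0.45, and prp17 null stood above them. FMP16 changed by -1.69 ± 0.18 (SE, adjusted p = 0.0117). GCY1, the gene of an aldo-keto reductase that acts in glycerol metabolism, was at 2.96, 1.24, 0.56 and 0.55 at 60 min, against 4.22, 2.94, 1.47 and 1.69 at 30 min, a change of -1.25 ± 0.15 (SE, adjusted p = 0.0279).

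These 4 genes are 0.0925% of the tested probes (limma, adjusted p under 0.05), and 0 probes were called higher (0%). At an unadjusted p under 0.05 there were 426 (9.86%), of which 238 were higher (5.51%) and 188 lower (4.35%). A change of 1 sign in all 4 strains was found for 742 probes (17.2%), 396 of them higher (9.16%) and 346 lower (8.01%). The 4 values at 60 min lay below all 4 at 30 min for 24 probes (0.555%) and above them for 41 (0.949%). The replicates behind each p are the changes of 4 strains, 3 of them mutant, so the p measures whether a change was shared by these strains. No probe passed under quantile normalization, in a fit without the strain as a block, in a fit of all 24 arrays, or without the prp17-1 arrays, so all 4 calls were lost in each of these settings, while the mean changes of the 4 genes stayed between -2.10 and -0.99 under the alternatives tried.

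**Figure D1:**
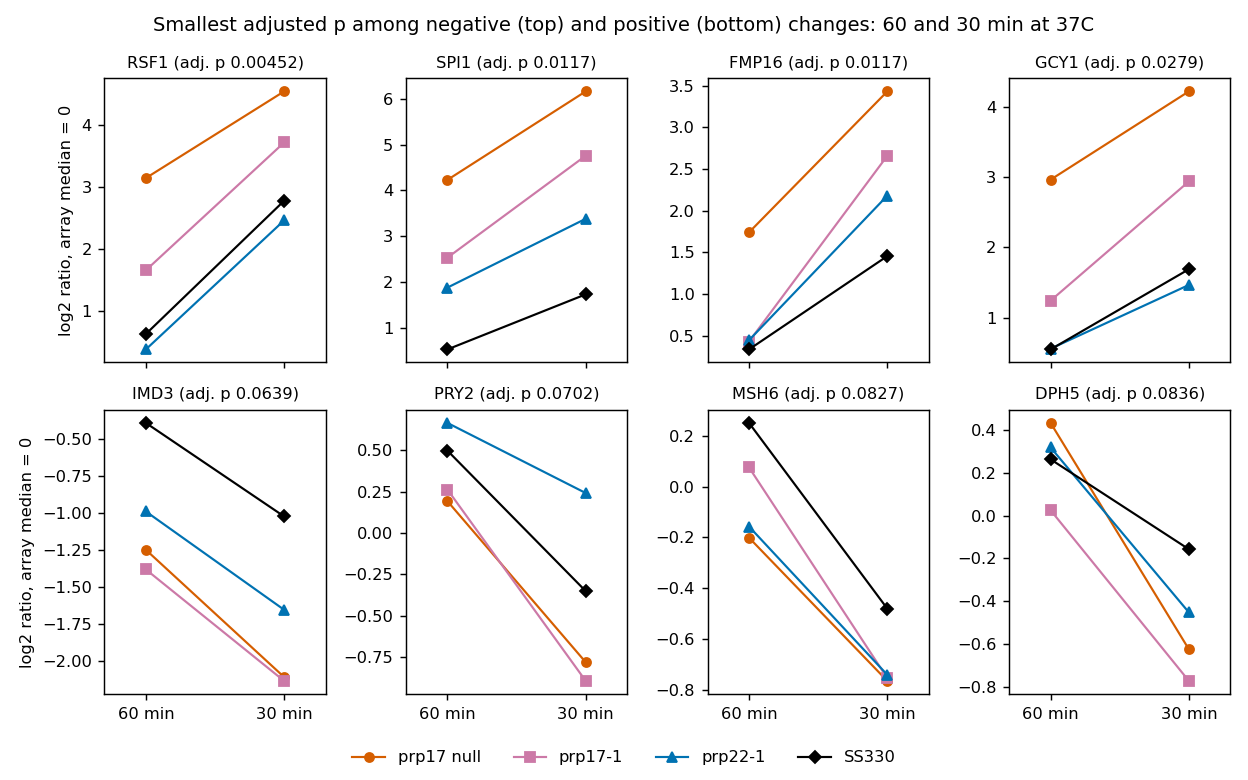
Log2 ratio (array median set to 0) at 60 min, left, and 30 min, right, in each panel, with 1 point per strain and a line joining the pair of a strain. The top row holds the 4 genes that passed, with lower values at 60 min in each strain, and the bottom row the 4 genes of smallest p among positive changes, none of which passed (adjusted p = 0.0639 to 0.0836).

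A further 8 genes with lower values at 60 min in each strain had an adjusted p of 0.0591 and did not pass. Among them UGP1, PGM2 and GPH1 act in making or using glycogen. UGP1, the UDP-glucose pyrophosphorylase gene, was at 1.65, 1.25, -0.04 and 0.16 at 60 min, against 2.74, 2.55, 1.81 and 0.80 at 30 min. PGM2, a phosphoglucomutase gene, was at 1.66, 1.49, 0.39 and -0.09 at 60 min, against 3.49, 2.60, 2.08 and 0.56 at 30 min, and its mean change was -1.32 ± 0.20 (SE). GPH1, the glycogen phosphorylase gene, was at 3.19, 1.27, -0.13 and 0.07 at 60 min, against 4.04, 2.0, 1.37 and 1.43 at 30 min. Over these 3 genes the lowest level at 60 min in prp17 null and prp17-1 was 1.25, and the highest in prp22-1 and SS330 was 0.39.

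GRE3, an aldose reductase gene, had a mean change of -1.03, and TFS1, which encodes an inhibitor of carboxypeptidase Y, one of -1.70. ALD2, an aldehyde dehydrogenase gene, had a mean change of -1.5, RGI1, which acts in energy metabolism under respiratory growth, one of -1.15, and YMR090W one of -0.98. TFS1 had the most negative change of the 12 in SS330, at -2.49, against -0.78 in prp17 null. Of these 12 genes, the 4 that passed and the 8 that did not, 7 belong to the list of general stress genes and 0 to the chaperones. These lists hold 34 and 26 of the 3862 tested probes with a gene name. With so few chaperones tested, the 0 does not set them apart. The 30 min and 60 min ranges overlapped in all 12.

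No gene passed in the upward direction, and the 12 nearest had an adjusted p of 0.0639 to 0.158 and mean changes of 0.57 to 0.86. IMD3, an IMP dehydrogenase gene of guanine nucleotide synthesis, came first. It was at -1.25, -1.38, -0.99 and -0.39 at 60 min, against -2.11, -2.14, -1.66 and -1.02 at 30 min, a mean change of 0.73 ± 0.12 (SE, adjusted p = 0.0639). IMD3 has close paralogs and the probe type is not given, so its signal may be shared with them. MSH6, a mismatch repair gene expressed around the start of S phase, was at -0.20, 0.08, -0.16 and 0.25 at 60 min, against -0.77, -0.76, -0.74 and -0.48 at 30 min, and the ranges did not overlap. DPH5, a methyltransferase gene that helps to make diphthamide on elongation factor eEF2, was at 0.43, 0.03, 0.32 and 0.26 at 60 min, against -0.63, -0.77, -0.45 and -0.16 at 30 min, again without overlap.

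RDH54, a recombination gene, and SCW10, a cell wall glucanase gene, had ranges that did not overlap either, with mean changes of 0.66 and 0.74. The other 7 were PRY2, of a secreted sterol-binding protein (0.85), URM1, of a ubiquitin-like protein used in tRNA thiolation (0.86), NOP6 (0.85) and KRR1 (0.81) of small ribosomal subunit assembly, RPP1A of the ribosomal stalk (0.57), the cell wall protein gene TOS6 (0.79) and YBR071W (0.71). Of the 7 that could be tested at 5 and 15 min, 1 met the rule for early lowered genes given next, which was SCW10.

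The early response gives a yardstick for recovery that uses none of the 30 and 60 min arrays. Over the 12 arrays at 0, 5 and 15 min, 3106 probes could be tested. Of these, 121 (3.9%) were raised early, with an adjusted p under 0.05 and a mean log2 change of at least 1 from time 0, and 227 (7.31%) were lowered early by the same rule. Values on all 8 later arrays were available for 104 of the 121 and 193 of the 227. The raised set held 14 chaperone and 14 general stress genes, and the lowered set 67 ribosomal protein and 37 ribosome biogenesis genes. Of the 12 genes with lower values named above, 2 could be tested at 0, 5 and 15 min, and both were raised early. The 4 genes that passed could not be tested there, so they could not enter the raised set.

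Early raised genes mostly moved back toward time 0 between 30 and 60 min, in each strain, while 0 of 104 passed on their own. Lower values at 60 min were found for 88 of 104 in prp17 null, 90 in prp17-1, 71 in prp22-1 and 83 in SS330, where the shares of all tested probes were 47.1%, 43%, 51% and 51.9%. Their median change was -0.33, -0.45, -0.40 and -0.45. A lower value in all 4 strains was found for 45 of 104, or 43.3% (8.01% of all tested probes), and a higher value in all 4 for 0. Of the 104, 58 were lower (55.8%, against 4.35% of all tested probes) and 0 higher at an unadjusted p under 0.05. Their median over the 4-strain means was -0.45, and it was -0.25 under quantile normalization.

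The strains differed in how much of the early rise was left. Measured from time 0, the median of the early raised probes in prp17 null at 5, 15, 30 and 60 min was 1.47, 1.40, 1.83 and 1.48. In prp17-1 the medians at the same times were 1.11, 1.42, 1.17 and 0.74, in prp22-1 1.60, 1.71, 1.01 and 0.47, and in SS330 1.41, 1.61, 0.79 and 0.30. So 30 min was the time of the highest median in prp17 null, and 15 min in the other strains. The probes were chosen for high values at 5 and 15 min against time 0, over all strains together. That choice favours higher medians at those times, so the time of the highest median is a description. These courses of a strain share its time 0 array, and the strains were not tested against each other at single times.

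**Figure D2:**
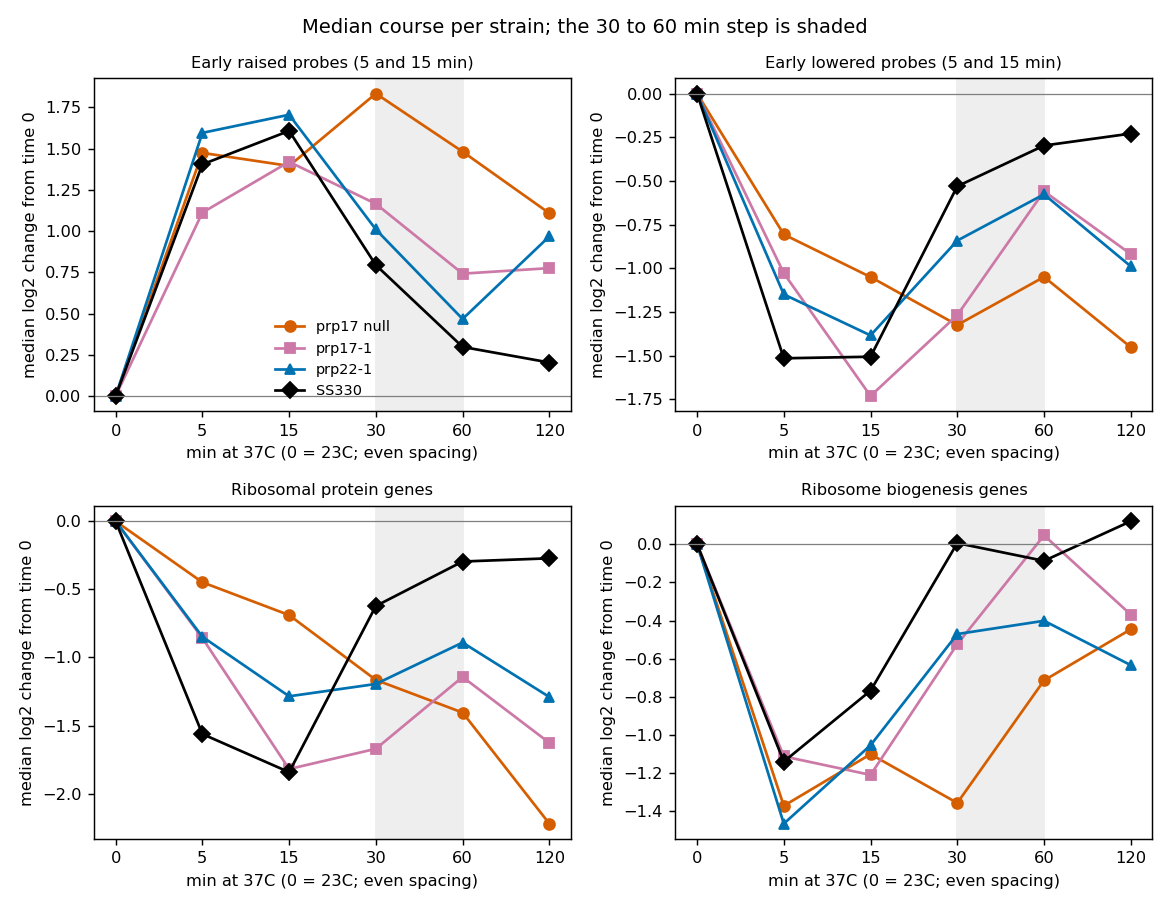
Median log2 change from time 0 in each strain against time at 37C (the points are evenly spaced, not to scale in minutes), for early raised and early lowered probes and for the ribosomal protein and ribosome biogenesis genes. The step from 30 to 60 min is shaded. Early raised probes were lower at 60 min than at 30 min in each strain, whereas the median of the ribosomal protein genes of prp17 null was lower at 60 min (-1.40) than at 30 min (-1.17).

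Among the early raised genes with the largest mean change, SSA3 had the widest gap between strains. SSA3 encodes an Hsp70 chaperone made under heat stress. It was at 5.51, 3.52, 0.95 and 0.42 at 60 min, against 5.85, 4.58, 2.83 and 2.59 at 30 min. Its changes were -0.34, -1.05, -1.88 and -2.17, and the mean of -1.36 ± 0.27 (SE, adjusted p = 0.103) did not pass. The level in prp17 null at 60 min was 5.50 above its time 0, and in SS330 0.59 above.

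ALD3, a second aldehyde dehydrogenase gene, was at 0.74, 0.76, -0.15 and 0.22 at 60 min, against 1.76, 3.34, 0.95 and 1.32 at 30 min. Every 60 min value lay below every 30 min value, and the mean change was -1.45 ± 0.25 (SE, adjusted p = 0.0702). ALD2 and ALD3 are near-identical paralogs, and their signals may be shared. GDB1, the glycogen debranching enzyme gene, was at 2.20, 1.12, -0.05 and 0.22 at 60 min, against 2.88, 1.98, 1.80 and 1.75 at 30 min, a mean change of -1.23 ± 0.20 (SE, adjusted p = 0.0639). PRX1, a mitochondrial peroxiredoxin gene, had a mean change of -0.97 (adjusted p = 0.0639), the glutathione transferase gene GTO3 one of -0.83, and the stress gene DDR48 one of -0.81. The change of DDR48 was -0.16 in prp17 null and -0.10 in prp17-1, against -1.86 in prp22-1 and -1.12 in SS330.

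Early lowered genes mostly had higher values at 60 min than at 30 min, with the highest count in prp17-1. Higher values were found for 123 of 193 in prp17 null, 184 in prp17-1, 121 in prp22-1 and 129 in SS330, where the shares of all tested probes were 52.8%, 56.9%, 48.9% and 48.1%. The median change was 0.27, 0.63, 0.12 and 0.17. A higher value in all 4 strains was found for 46 of 193 (23.8%, against 9.16% of all tested probes) and a lower one in all 4 for 0. There were 61 higher (31.6%, against 5.51%) and 0 lower at an unadjusted p under 0.05, and 0 passed after adjustment. From time 0 the medians were -1.05, -0.56, -0.58 and -0.30 at 60 min, against -1.32, -1.27, -0.84 and -0.53 at 30 min.

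Of the early lowered genes with the largest mean change, SVS1, a cell wall protein gene expressed around the start of S phase, was at -1.83, -0.78, -0.23 and -0.57 at 60 min, against -2.09, -2.35, -1.10 and -1.30 at 30 min (mean change 0.86 ± 0.20, SE, adjusted p = 0.185). It was higher at 60 min in each strain. HAS1, a DEAD-box RNA helicase gene of ribosome assembly, was at -1.25, -0.79, -0.97 and -0.69 at 60 min, against -3.12, -1.63, -1.23 and -0.67 at 30 min. Its changes were 1.86, 0.84, 0.26 and, in SS330, -0.01, where it was already at -0.17 from time 0 at 30 min. YTM1, a large subunit assembly gene, ran the same way, with changes of 1.01, 1.36, 0.14 and 0.02. KAP123, a nuclear import receptor gene, instead had changes of -0.14, 1.17, 1.12 and 0.75.

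General stress genes, which protect cells under many kinds of stress, had a lower median at 60 min in each strain. Of 52 listed, 34 were tested. After adjustment 2 of them, SPI1 and FMP16, passed, both with lower values (0.0925% of all tested probes passed). At an unadjusted p under 0.05, 20 of the 34 were lower (58.8%, against 4.35% of all tested probes) and 1 was higher. In all 4 strains 18 were lower (52.9%, against 8.01%). The median change was -0.48, -0.57, -0.62 and -0.59. Another 17 members lacked a value on some of the 8 arrays and were not tested, and of their 49 changes within a strain 45 were negative. Those include the trehalose synthase gene TPS1, with -0.93, -1.11 and -0.97 in the 3 mutants, the glutamate decarboxylase gene GAD1, with -0.84, -1.25 and -1.49 in the same strains, and the catalase gene CTT1, with -2.33 in prp17-1, -1.01 in prp22-1 and -0.57 in SS330.

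Heat shock chaperones, which hold or refold damaged proteins, had strain medians that spread with an SD of 0.237, against 0.0628 for the general stress genes. Of 26 tested, 0 passed. At an unadjusted p under 0.05, 12 were lower (46.2%, against 4.35% of all tested probes), and 9 were lower in all 4 strains (34.6%, against 8.01%). Lower values were found for 21 in prp17 null, 21 in prp17-1, 14 in prp22-1 and 18 in SS330, with median changes of -0.61, -0.35, -0.03 and -0.30. Of all tested probes 47.1%, 43%, 51% and 51.9% were lower, so the count in prp22-1 was near that share. Measured from time 0 the chaperone median was 1.62, 0.61, 0.40 and 0.11 at 60 min, against 2.55, 1.04, 0.44 and 0.62 at 30 min. ECM10, the gene of a mitochondrial Hsp70, was the member with the largest mean change after SSA3 among those of 1 sign, at -0.75 (-1.49, -0.63, -0.59 and -0.30). HSP26, a small heat shock protein gene that was not tested because prp17 null lacked a value, had changes of -1.58 in prp17-1, -1.09 in prp22-1 and -3.75 in SS330. It was 1 of 6 chaperones not tested, and of their 18 changes within a strain 10 were negative and 8 positive. HSP30, which encodes a plasma membrane protein, had -0.41 in prp17-1, 1.05 in prp22-1 and 0.63 in SS330. Over the 26 tested chaperones the median of the mean changes was -0.46, and it was -0.13 under quantile normalization, -0.27 without prp17 null and -0.30 without prp17-1.

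Proteasome genes were lower at 60 min chiefly in SS330. Of 29 tested, 0 passed and 0 had an unadjusted p under 0.05. Lower values were found for 13 in prp17 null, 11 in prp17-1, 23 in prp22-1 and 28 in SS330, with median changes of 0.003, 0.08, -0.12 and -0.29. Among all tested probes the shares with lower values were 47.1%, 43%, 51% and 51.9%. From time 0 the SS330 median was 0.74 at 15 min, then 0.23 at 30 min and -0.04 at 60 min. The prp17 null median stayed between -0.07 and 0.14 at all 5 times after the shift.

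Ribosome biogenesis genes, whose products process rRNA and assemble the subunits, were higher at 60 min in prp17 null and prp17-1. Of 97 tested, 93 were higher in prp17 null, 97 in prp17-1, 57 in prp22-1 and 22 in SS330. The median change was 0.72, 0.56, 0.05 and -0.11. Among all tested probes the shares with higher values were 52.8%, 56.9%, 48.9% and 48.1%. None of the 97 passed. At an unadjusted p under 0.05, 23 were higher (23.7%, against 5.51% of all tested probes) and 0 lower. In all 4 strains 16 were higher (16.5%, against 9.16%). In SS330 the median from time 0 was already 0.01 at 30 min and was -0.09 at 60 min, while in prp17 null it was -1.36 at 30 min and -0.71 at 60 min. KRR1 and NOP6 were the members with the largest mean change of 1 sign. KRR1 was at -0.71, -0.30, -0.54 and -0.13 at 60 min, against -2.17, -1.02, -1.20 and -0.52 at 30 min, and NOP6 was at -0.42, 0.25, 0.25 and 0.05 at 60 min, against -1.30, -1.17, -0.57 and -0.25 at 30 min.

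RNA polymerase I and III genes, which transcribe rRNA and tRNA, had smaller changes. Of 27 tested, 0 passed, and the median change was 0.20, 0.14, 0.07 and -0.01. At an unadjusted p under 0.05, 4 were higher (14.8%, against 5.51% of all tested probes). RPA190, the largest subunit of polymerase I, had changes of 0.14, 0.72, 0.36 and 0.13. Of 36 translation factor genes 0 passed, with median changes of 0.21, 0.54, -0.06 and -0.02. At an unadjusted p under 0.05, 6 were higher (16.7%, against 5.51% of all tested probes). TIF11, which encodes the initiation factor eIF1A, was at -0.71, -0.28, -0.14 and -0.12 at 60 min, against -0.75, -1.44, -0.74 and -0.74 at 30 min, and the ranges did not overlap. TIF3, the eIF4B gene, had changes of 0.72, 0.89, 0.42 and 0.16.

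Ribosomal protein genes moved in different directions in different strains. Of 111 tested, 34 were higher at 60 min in prp17 null, 88 in prp17-1, 50 in prp22-1 and 101 in SS330. The median change was -0.24, 0.32, -0.03 and 0.33, and 0 passed. Of all tested probes 52.8%, 56.9%, 48.9% and 48.1% were higher, so the count of 50 in prp22-1 was near that share. At an unadjusted p under 0.05, 17 of the 111 were higher (15.3%, against 5.51% of all tested probes) and 0 lower. The median of the mean changes was 0.10 and turned to -0.0046 under quantile normalization. It was 0.22 without prp17 null, 0.05 without prp17-1 and 0.03 without SS330. Many ribosomal protein genes exist as near-identical pairs whose signals may be shared, so the count of members is not a count of separate measurements. RPS22A was at -2.38, -1.48, -0.85 and -0.41 at 60 min, against -2.60, -2.60, -1.54 and -0.96 at 30 min. RPL1B was at -2.29, -1.67, -1.43 and -0.98 at 60 min, against -2.83, -2.59, -1.88 and -1.42 at 30 min. Both were higher at 60 min in each strain, with mean changes of 0.65 ± 0.16 and 0.59 ± 0.14 (SE, adjusted p = 0.21 and 0.185). RPS15, a single-copy gene, had changes of -0.21 in prp17 null, 1.44 in prp17-1, 0.71 in prp22-1 and 0.71 in SS330.

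Because the mutants affect splicing, the ribosomal protein genes were also split by whether the distance from start to stop codon is a multiple of 3. A frame interrupted by an intron often is not. An intron whose own length is a multiple of 3 escapes this rule. The group without an interrupted frame can therefore hold genes with introns, and the split is not one of genes with and without introns. The 47 with an interrupted frame had median changes of -0.24, 0.20, -0.09 and 0.29, and the 64 without had -0.24, 0.50, 0.17 and 0.35. At an unadjusted p under 0.05, 1 of the 47 (2.13%) and 16 of the 64 (25%) were higher, against 5.51% of all tested probes. The gap between the groups was 0.30 in prp17-1, 0.27 in prp22-1, 0.06 in SS330 and -0.003 in prp17 null (without minus with), and it was not tested. The median of the mean changes was 0.02 with an interrupted frame, and its sign turned in 4 of 13 alternatives, among them leaving out prp17-1 (-0.06) or SS330 (-0.06), while it was 0.11 without prp17 null and 0.05 without prp22-1. For the 64 without an interrupted frame by this rule it was 0.20 and kept its sign in all 13. But its size was 0.39 without prp17 null and 0.10 without prp17-1. RPS24B, with an interrupted frame, had changes of 0.35, 0.42, 0.18 and 0.24, and RPL43A, also interrupted, had -0.03, -0.38, -0.41 and -0.11. Of 68 tested intron-containing genes outside the ribosome, 0 passed. At an unadjusted p under 0.05, 1 was higher (1.47%, against 5.51% of all tested probes) and 3 lower (4.41%, against 4.35%). The count of lower genes was near the share of all tested probes. The median change of the 68 was -0.14, 0.01, 0.09 and 0.05. UBC4, a ubiquitin-conjugating enzyme gene, had changes of -0.78, -0.24, -0.40 and -0.48, and COF1, the cofilin gene, -1.12, -0.47, -0.02 and -0.12.

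**Figure D3:**
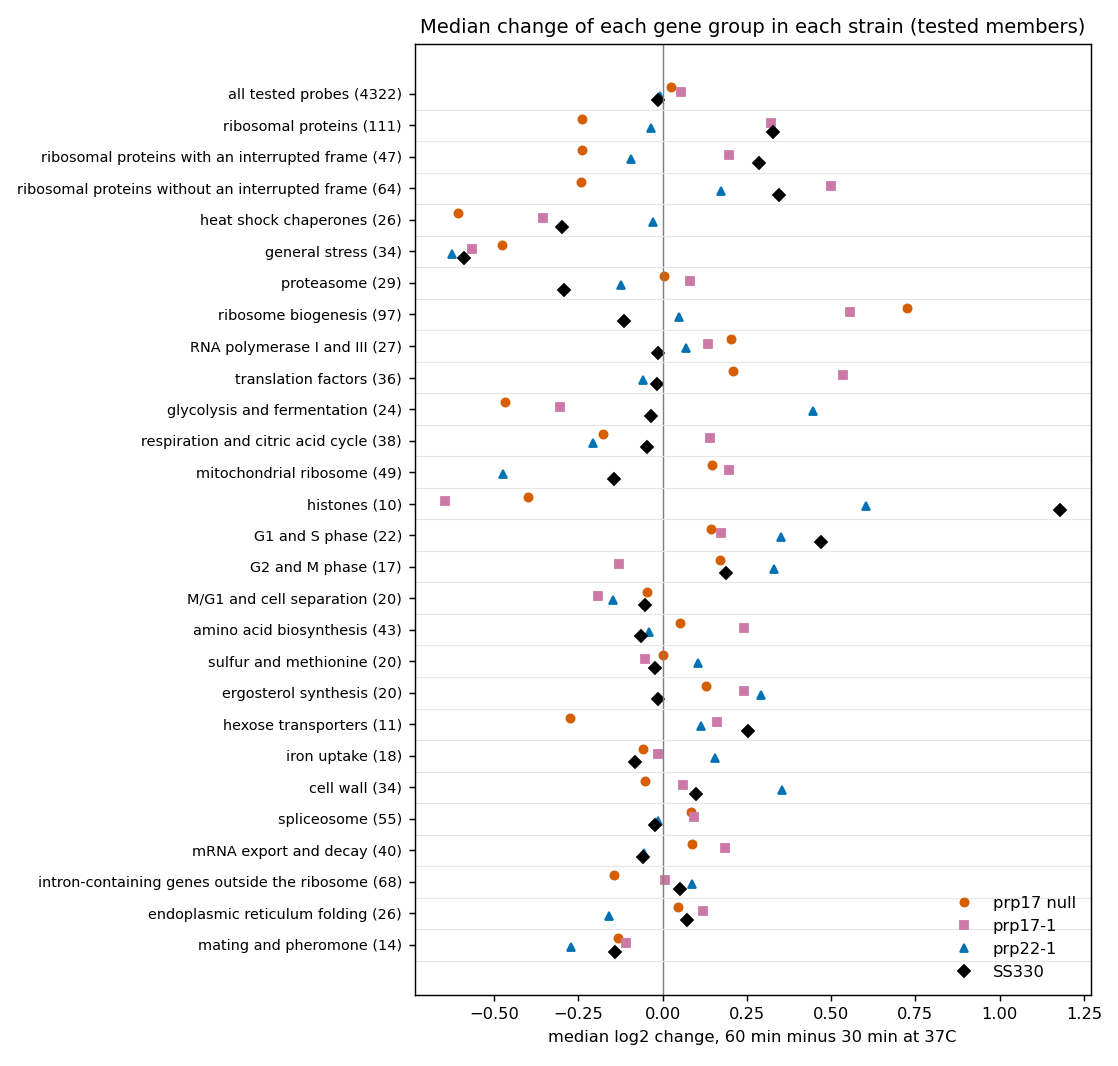
Median log2 change (60 min minus 30 min) of the tested members of each gene group, with 1 symbol per strain and the number of tested members in brackets. General stress genes lie at -0.62 to -0.48 in all 4 strains, while histones span -0.64 (prp17-1) to 1.18 (SS330).

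Histone genes, which are transcribed in S phase, had the widest spread of strain medians among the gene lists (SD 0.854). All 10 tested had higher values at 60 min than at 30 min in prp22-1 and in SS330, whereas 3 of 10 did in prp17 null and 2 of 10 in prp17-1. The median change was -0.40, -0.64, 0.60 and 1.18. HHF2, an H4 gene, was at -2.68, -1.07, -1.10 and -0.41 at 60 min, against -1.74, -0.55, -2.03 and -2.28 at 30 min. HTA1, an H2A gene, was at -3.04, -2.41, -1.35 and -0.83 at 60 min, against -2.17, -1.79, -1.94 and -2.19 at 30 min. In both genes SS330 had the lowest level at 30 min and the highest at 60 min. The core histone genes HTB1, HTB2, HHT1, HHT2 and HHF1 had negative changes in prp17 null and prp17-1 and positive ones in prp22-1 and SS330, as HHF2 and HTA1 did.

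The variant genes stood apart from the core genes. HTZ1, the H2A.Z gene, had changes of 0.05, 0.13, 0.31 and 0.33, the linker histone gene HHO1 0.40, -0.29, 0.05 and 0.17, and CSE4, the gene of the centromeric H3 variant, 1.48, 0.13, 0.62 and 0.22. Core histones have near-identical gene copies, so their probes may share signal and are not separate measurements. From time 0 the histone median was -1.92, -1.70, -1.01 and -0.49 at 60 min, against -1.31, -1.0, -1.91 and -1.96 at 30 min. The median over the mean changes was 0.20, and it was -0.19 without SS330, 0.36 without prp17 null, 0.50 without prp17-1 and 0.07 without prp22-1. In a bulk culture a lower ratio in every cell and fewer cells in S phase cannot be told apart.

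**Figure D4:**
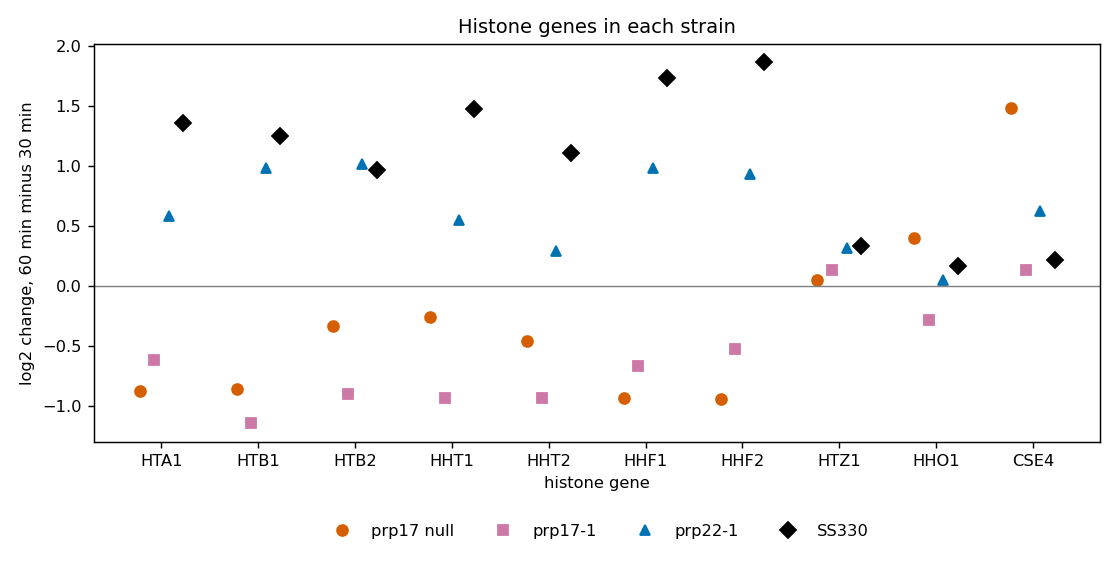
Log2 change (60 min minus 30 min) of each tested histone gene, with 1 symbol per strain. For the 7 core histone genes on the left, prp17 null and prp17-1 lie below 0 and prp22-1 and SS330 above it, while HTZ1, HHO1 and CSE4 do not follow that split.

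Genes of the G1 to S transition had the highest share of members with higher values in all 4 strains among the gene lists. That share was 10 of 22 or 45.5%, against 9.16% of all tested probes. Of the 22 tested, 0 passed, and the median change was 0.14, 0.17, 0.35 and 0.47. At an unadjusted p under 0.05, 8 were higher (36.4%, against 5.51% of all tested probes). MSH6 and SVS1, described above, were the members with the largest mean change of 1 sign. Of 17 G2 and M phase genes 0 passed, with median changes of 0.17, -0.13, 0.33 and 0.19, and SWI5, a transcription factor gene of the end of mitosis, had changes of 0.05, 0.12, 0.40 and 0.39. Of 20 M/G1 and cell separation genes 0 passed. At an unadjusted p under 0.05, 5 were lower (25%, against 4.35% of all tested probes). In all 4 strains 5 were lower (25%, against 8.01%) and 2 higher (10%, against 9.16%). DSE4, a glucanase gene that acts when daughter cells separate, was at -0.21, -0.98, -0.38 and -0.01 at 60 min, against 0.75, -0.00, 0.80 and 0.06 at 30 min, and SCW11, another glucanase gene, had changes of -0.98, -0.64, -0.84 and -0.44.

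Metabolic groups mostly differed in sign between strains. Of all tested probes 47.1%, 43%, 51% and 51.9% were lower, and 52.8%, 56.9%, 48.9% and 48.1% higher. Glycolysis and fermentation genes were lower at 60 min for 22 of 24 in prp17 null and 17 in prp17-1, and higher for 20 of 24 in prp22-1, with 10 higher in SS330. Their median change was -0.47, -0.30, 0.45 and -0.03, and 0 passed. At an unadjusted p under 0.05, 1 was lower (4.17%, near the 4.35% of all tested probes). PYK2, the gene of a minor pyruvate kinase, was lower in each strain (-0.28, -0.24, -0.62 and -0.35). Mitochondrial ribosomal protein genes were higher for 37 of 49 in prp17 null and 39 in prp17-1, and lower for 47 of 49 in prp22-1 and 42 in SS330, with median changes of 0.15, 0.20, -0.47 and -0.15. The median of their mean changes, -0.07, turned to 0.09 without prp22-1, and it was -0.15 without prp17 null and -0.16 without prp17-1. Respiration and citric acid cycle genes had median changes of -0.18, 0.14, -0.21 and -0.05 over 38 tested. In all 4 strains 6 were lower (15.8%, against 8.01% of all tested probes). INH1, the inhibitor of the mitochondrial ATPase, had changes of -0.17, -0.07, -0.84 and -0.20.

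Of 20 ergosterol synthesis genes 4 were higher at an unadjusted p under 0.05 and 6 were higher in all 4 strains, with median changes of 0.13, 0.24, 0.29 and -0.01. ERG12, the mevalonate kinase gene, was at 1.21, 1.02, 1.36 and 0.89 at 60 min, against 0.76, 0.33, 0.74 and 0.67 at 30 min, without overlap (mean change 0.50 ± 0.13, SE, adjusted p = 0.235). Of 11 hexose transporter and sensing genes 3 were higher at an unadjusted p under 0.05, and HXT3, a low-affinity glucose transporter gene, had changes of 0.34, 0.56, 0.76 and 1.2. Of 34 cell wall genes 4 were higher at an unadjusted p under 0.05, and 31 were higher in prp22-1, against 16 in prp17 null, 18 in prp17-1 and 21 in SS330. None of the genes in these 3 groups passed. Of all tested probes 5.51% were higher at an unadjusted p under 0.05, 9.16% were higher in all 4 strains, and 48.9% were higher in prp22-1.

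No member of the remaining groups passed. The median change was 0.05, 0.24, -0.04 and -0.06 for 43 amino acid biosynthesis genes, 0, -0.05, 0.11 and -0.02 for 20 sulfur and methionine genes, and -0.06, -0.01, 0.16 and -0.08 for 18 iron uptake genes. It was 0.05, 0.12, -0.16 and 0.07 for 26 genes of protein folding in the endoplasmic reticulum. For 55 spliceosome genes it was 0.09, 0.09, -0.01 and -0.02, and for 40 mRNA export and decay genes 0.09, 0.19, -0.05 and -0.06. PRP43, an RNA helicase gene that disassembles spliceosomes and also acts in ribosome assembly, had changes of 0.46, 0.99, 0.06 and 0.02, and SUB2, an mRNA export helicase gene, 0.07, 0.67, 0.56 and 0.38. Mating and pheromone genes had medians of 1 sign in all 4 strains, at -0.13, -0.11, -0.27 and -0.14. All 14 tested were lower at 60 min in prp22-1, and 9, 9 and 10 were lower in the other 3 strains. Of the 14, 3 were lower at an unadjusted p under 0.05 (21.4%, against 4.35% of all tested probes), and 4 were lower in all 4 strains (28.6%, against 8.01%). AGA1, an agglutinin subunit gene, had changes of -0.33, -0.12, -1.51 and -0.66.

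The strains differed in the size of the step and in which probes moved. At least 2-fold higher at 60 min were 80 probes in prp17 null (1.85%), 55 in prp17-1 (1.27%), 94 in prp22-1 (2.17%) and 21 in SS330 (0.486%). At least 2-fold lower were 74 (1.71%), 44 (1.02%), 53 (1.23%) and 36 (0.833%). The SD of the change over the 4322 tested probes was 0.456, 0.382, 0.424 and 0.307. Over these probes the changes of prp22-1 and SS330 correlated with Pearson's r = 0.46, those of prp17-1 and SS330 with 0.22, and those of prp17 null and SS330 with -0.04. Between mutants r was 0.33 for prp17 null and prp17-1, 0.12 for prp17-1 and prp22-1, and -0.02 for prp17 null and prp22-1. These correlations are across probes of single array pairs, which are not independent replicates, and describe these arrays.

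**Figure D5:**
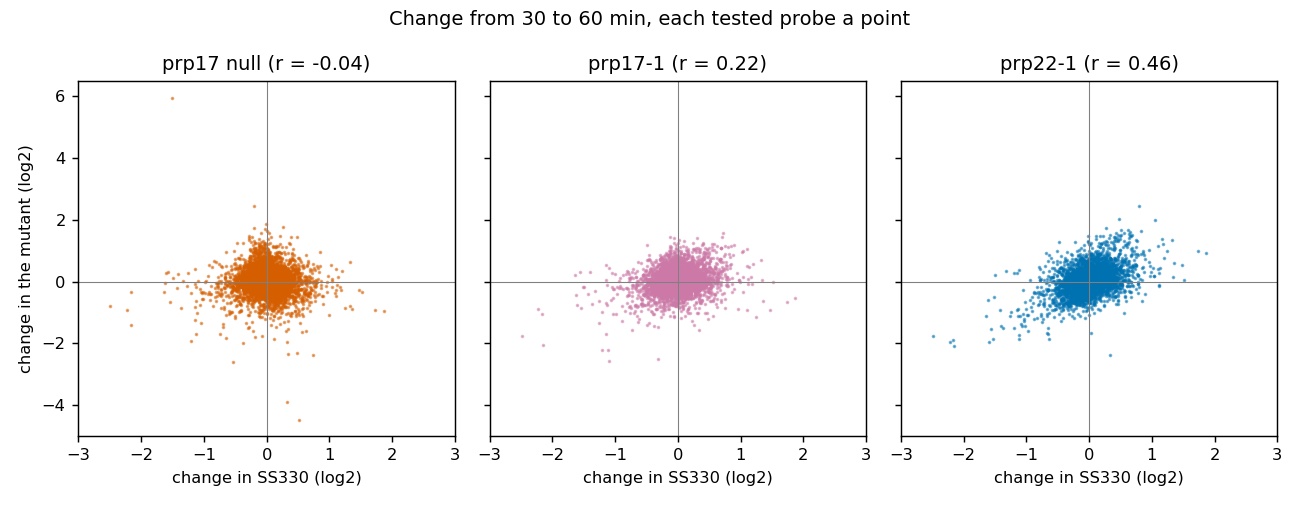
Log2 change (60 min minus 30 min) of each of the 4322 tested probes in a mutant strain (vertical axis) against SS330 (horizontal axis). The cloud leans upward for prp22-1 (r = 0.46), less for prp17-1 (r = 0.22) and not for prp17 null (r = -0.04).

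The largest changes within a strain had no replicate and are given as values. In prp17 null several rested on 1 array that stood apart from the rest of that strain's course. HSP12, a membrane-protecting heat shock gene, had the largest change of all tested probes there, 5.96, and its levels at 0, 5, 15, 30, 60 and 120 min were 0.50, 3.0, 5.44, -0.56, 5.40 and 2.74. In prp17-1, prp22-1 and SS330 its changes were -0.17, -0.50 and -1.51. STE2, the receptor gene for alpha factor, had a change of -4.49 in prp17 null, with levels of 4.39, 2.26, 1.91, 3.82, -0.67 and 2.86 over the same times, against 1.72, 2.05, 1.87, 1.21, 1.73 and 1.39 in SS330. ELP3, the catalytic subunit gene of Elongator, had a change of 2.46 in prp17 null, where its level at 30 min was -3.07 and its other 5 levels lay between -1.62 and -0.32. The asparaginase gene ASP3-4, which has near-identical copies, was at -3.04 at 60 min and 0.88 at 30 min in prp17 null, against -3.31 to -2.10 on the other 6 arrays of these times.

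In prp17-1 the largest negative changes were in ALD3 (-2.58), DCS2 (-2.52), which acts in mRNA cap metabolism, FMP16 and SPI1 (-2.23 each), and the largest positive ones in SVS1 (1.56), RFC1 of the replication clamp loader (1.45), RPS15 (1.44) and NOP6 (1.42). In prp22-1 they were in HXK1, a hexokinase gene (-2.37), RSF1 (-2.08), NQM1, a transaldolase gene (-1.96), and ALD2 (-1.94), and in YHB1, the flavohemoglobin gene (2.46), CWP2, a cell wall mannoprotein gene (2.01), OLE1, the fatty acid desaturase gene (2.0), and YLR462W (1.73). In SS330 they were in TFS1 (-2.49), ALD2 (-2.22), SSA3 (-2.17) and RSF1 (-2.15), and in HHF2 (1.87), HHF1 (1.73), ATG17, an autophagy gene (1.52), and HHT1 (1.48). HXK1 had changes of -2.34, -0.52 and -2.37 in the 3 mutants, against 0.33 in SS330.

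The difference between the mutants and SS330 was then tested directly, as the mean change of the 3 mutants minus that of SS330. SS330 has a single pair of arrays, so its change was assumed to vary like those of the mutants. Of 4322 probes 0 passed (0%) in limma, and 60 had an unadjusted p under 0.05 (1.39%). In 38 of these SS330 had the higher change (0.879%) and in 22 the lower (0.509%). The share of 1.39% is smaller than the 0.05 that the threshold alone lets through where no probe differs. The genes named for this comparison are therefore a description. All genes named for this comparison had an adjusted p of 1.0.

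ALD6, the main cytosolic acetaldehyde dehydrogenase gene, was first by p among genes with the lower change in the mutants. It was at -2.33, -0.02 and -0.30 in the mutants and 0.03 in SS330 at 60 min, against -0.70, 1.09 and 0.72 in the mutants and -0.53 in SS330 at 30 min. Its change averaged -1.25 ± 0.33 in the mutants (SD, n = 3) and was 0.56 in SS330, a difference of -1.81. HHF2 had a difference of -2.04, ATG17 one of -1.63, MOR1 -1.53, OM14 of the mitochondrial outer membrane -1.27 and YDR131C -1.27. In the other direction were MRX10 (1.54), MIC26 of the mitochondrial inner membrane organizing complex (1.34), HBT1 (1.25), the phosphoacetylglucosamine mutase gene PCM1 (1.16), MTR4, an RNA helicase gene of the nuclear exosome (1.07), and UPA1 (1.00). MTR4 had changes of 1.18, 1.12 and 0.56 in the mutants and -0.12 in SS330. Without prp17-1, 3 genes passed, HSP12 (4.24), STE2 (-2.79) and HXK1 (-2.69). For HSP12 and STE2 the difference rested on the prp17 null arrays whose values are given above. The 3 genes had the same SE, 0.544, which was pooled over probes. These calls therefore do not measure the spread of each gene between strains.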

How the data were processed

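The authors' deposited values are log2 ratios of 24 two-colour arrays, with the strain's RNA in Cy5 and genomic DNA in Cy3 per the labels. The base was taken as 2. The sources used here do not give the background correction, normalization, probe type or direction of the ratio, and the direction was read from heat shock genes, which were high at 37C. No intensities were used, so signal over background is unknown and the number of arrays limits the precision.

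Each array was centred on its median. Probes with a value on all 8 arrays were tested (4322 of 6350, of which 3862 carry 1 gene name from the platform annotation, updated through a RefSeq gene table). Models were fitted in R 4.3.3 by limma 3.58.1, the strain entering as a block, which pairs arrays because both come from 1 strain, and Benjamini-Hochberg adjustment over all tested probes (threshold 0.05). The early response used the 12 arrays at 0, 5 and 15 min. The difference between mutants and SS330 was fitted on the 4 paired changes. Both fits recovered known changes when tested on data simulated with independent normal noise. For mutants against SS330 the planted differences were larger than most of those named here. The simulation therefore does not show how many differences of the smaller sizes that fit would find.

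The rule for naming genes took the 12 of smallest p in each direction with 1 sign in all strains (largest first among those that passed), the 6 in each direction for mutants against SS330, the 4 largest changes in each direction within a strain, 2 of each of 24 gene lists (and of the ribosomal protein genes and their split by frame), 8 recovering genes of each early set, CDC40 and PRP22. All histone genes, and members named only as not tested or to list a small count, were named after their values were seen. The comparison, lists and members were chosen with earlier results of these data known. Other scalings, filters, fits and thresholds were tried, and each strain was left out. Tables and figures used matplotlib 3.10.9, pandas 2.3.3 and numpy 2.4.6 in Python 3.11.15. Sequences and positions are not used here.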

Additional observations from a re-analysis of the deposited data

Results flagged for a closer look

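In 6 of 78 sets of 4 strain changes looked at, 1 strain stood apart from the other 3 by Dixon's test. Chance flags about 1 in 20 such sets. RSF1 changed by -1.40 in prp17 null, against -2.15 to -2.06 in the other strains. ALD3 changed by -2.58 in prp17-1, against -1.10 to -1.02 in the others. GTO3 changed by -1.99 in prp17 null, against -0.48 to -0.38. SS330 stood apart from the mutants in 3 genes that were chosen for a difference between mutants and SS330, so its place there is a description. The mutants had -0.27 to -0.09 for YDR131C, against 1.11 in SS330. For OM14 they had -0.48 to -0.25, against 0.90 in SS330. For UPA1 they had 0.20 to 0.30, against -0.73 in SS330.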

How the results depend on the processing

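The main count of 4 called probes from 30 to 60 min was 18 without centring (1 higher and 17 lower), 0 under quantile normalization, 0 with a value required on all 24 arrays, 0 with all 24 arrays in the fit, 0 with no replicate block (pairing by strain left out), 1 with a trended prior (FMP16), 1 at an adjusted p under 0.01 (RSF1) and 34 at 0.10. At an unadjusted p under 0.05 the settings with 0 calls had 345, 240, 292 and 102 probes. Leaving out a strain gave 0 (prp17-1) to 9 (SS330), with 8 without prp17 null and 1, RSF1, without prp22-1. RSF1, SPI1, FMP16 and GCY1 kept their sign in all alternatives that tested them, with adjusted p from 0.0021 to 0.999. For mutants against SS330 the count was 0 except without prp17-1, where it was 3 (leave-one-out range 0 to 3). Early raised probes numbered 305 at a log2 change of at least 0.5 and 77 under quantile normalization, and early lowered probes 579 and 112. The median change of early raised probes was -0.23 with the looser set and -0.25 under quantile normalization, and -0.45 to -0.38 when a strain was left out. Under quantile normalization the medians were -0.13 for chaperones, -0.44 for general stress, -0.23 for M/G1 and -0.037 for sulfur and methionine genes, and with a value required on all 24 arrays -0.41, -0.045 and -0.043 for the last 3. Leaving out a strain gave -0.62 to -0.51 for general stress and -0.13 to -0.020 for sulfur and methionine genes. No result reversed after being called. The cause of these shifts was not tested, except that fewer samples or probes enter where a strain or probes are left out.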

Other observations

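From time 0 to 120 min the median change of the early raised probes was 1.11 in prp17 null, 0.78 in prp17-1, 0.97 in prp22-1 and 0.20 in SS330, and that of the early lowered probes was -1.45, -0.92, -0.99 and -0.23. Both medians were farther from 0 at 120 min than at 60 min in prp22-1 (0.47 and -0.58 at 60 min) and in prp17-1 (0.74 and -0.56), and in prp17 null that of the early lowered probes was (-1.05), while in SS330 both were nearer 0. Of the 4 called genes, RSF1 was 1.44, 1.58, 0.90 and -0.12 from time 0 at 120 min, and SPI1 was 4.21, 2.36, 2.56 and 0.18. Histone genes had a median of -2.48 in prp17 null, -0.78 in prp17-1, -1.39 in prp22-1 and -0.18 in SS330. These values have 1 array each and were not tested.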
